A study of Mus musculus with 4 samples.

Results

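The respiratory chain genes were taken as every probe set on the array whose single annotated symbol belongs to a named family of subunits: Nduf (complex I), Sdh (complex II), Uqcr (complex III), Cox4 to Cox8 with a letter a, b or c (complex IV) and Atp5 (complex V), with Cycs for cytochrome c. This gave 148 probe sets for 77 genes, of 22690 probe sets and 12393 singly named genes in all. After a filter on mean brightness over all 4 samples, 135 of these probe sets and 74 of the genes were kept. The 3 genes that dropped out were Ndufb1, Cox6b2 and Cox7a1, with no reading above 33.0. By complex the kept genes numbered 32, 4, 8, 12 and 17 for complexes I to V, plus Cycs. A further 7 probe sets carried a matching symbol together with another gene's and were left aside, Ndufb4, Ndufa11 and Ndufs6 among them. Cox4i1, Cyc1 and Ndufab1 fall outside the naming rule and were read with the neighbouring mitochondrial genes.

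RNA of hair follicles from the dorsal skin was hybridised to 1-colour Affymetrix arrays. The mice were untreated males, 14 days after birth. The homozygous group was HrHos / HrHos, 2 samples (replicates 2 and 3), and the control group was heterozygous, +/HrHos, 2 samples (replicates 3 and 4). All were N1 littermates of a Hos: HR-1 male and a heterozygous F1 female of HR-1 and ICR parents, so by the strain field every sample carried at least 1 mutant Hr allele and no mouse was wild-type. The titles nonetheless call the control samples WT. Hr encodes a nuclear corepressor required for hair cycling, and the mutation is recessive. Follicles were isolated by laser capture microdissection, in which a laser cuts chosen structures from a tissue section, and many follicles were pooled per sample. The labels name neither the follicle compartment that was outlined nor the animal behind each array, so any p-value here reflects spread among 4 arrays, and that spread may be technical. The label of homozygous replicate 3 is in conflict: by title it is homozygous, by strain field heterozygous, and its source name is that of homozygous replicate 2. Their values are not those of 1 library deposited again, with a correlation over all genes of 0.933 and an SD of their log2 differences of 0.571, but whether both came from the same animals cannot be told from the labels. It was grouped by title, and values by strain field are given where they change a result.

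The respiratory chain lies in the inner mitochondrial membrane. Complexes I and II pass electrons from NADH and succinate to ubiquinone, complex III passes them to cytochrome c, and complex IV passes them to oxygen. The proton gradient built up by complexes I, III and IV drives complex V, the ATP synthase. Growing hair follicles pair a highly proliferative matrix with strong glycolysis, and mitochondrial respiration is known to be required in the epidermis for hair growth. All genes described here are encoded in the nucleus.

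Follicle markers were present: 8 of 8 hair shaft keratins, 5 of 5 inner root sheath and 5 of 5 outer root sheath markers passed the brightness filter. So did 8 of 8 white fat, 9 of 9 fibroblast and 4 of 4 melanocyte markers, so this measure does not set the follicle apart from surrounding skin. The summed intensity of the hair shaft keratins was 9934 and 10286 for heterozygous replicates 3 and 4 against 15156 and 17913 for homozygous replicates 2 and 3, the order used throughout. For the inner root sheath markers the sum was 30493 and 27106 against 22278 and 23395, lower in both homozygous samples. For the outer root sheath markers it was 6979 and 3985 against 5156 and 5518, with overlapping groups. That of 4 melanocyte markers was 1357 and 2992 against 3051 and 5435. Array medians lay between 43.5 and 52.6. The 9 hybridization spike-ins had mean log2 values of 11.59 and 11.54 for heterozygous and 10.62 and 10.51 for homozygous samples. These values parted the groups without overlap, so an array difference behind them cannot be told apart from genotype. The 3' to middle ratio of Gapdh, which grows as transcripts shorten, was 30.1 in heterozygous replicate 4 and between 14.8 and 17.2 in the other samples. The same ratio of Actb went the other way, at 11.3 in heterozygous replicate 4 and between 33.7 and 45.9 in the others. Both ratios were 11.3 or more in every sample, so on all 4 arrays the 3' signal was much the stronger. The part of these ratios and sample differences in the results below was not tested.

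No respiratory chain gene was called different between the genotypes. Of 135 kept probe sets 0 passed limma's adjusted p under 0.05, as did 0 of all 13576 (0%). At an unadjusted p under 0.05 there were 4 of 135 (2.96%) against 2.30% of all probe sets, and, with each gene represented by its brightest kept probe set, 3 of 74 genes (4.05%) against 2.19% of all genes. By strain field the chain count was 1 of 135 probe sets and that over all probe sets 349. With single samples left out the count moved both for the chain and over all probe sets. A group then holds 1 sample, so those counts are not read as a result about the chain. Limma with robust eBayes and without an intensity trend also called 0 probe sets. Differences are given on the log2 scale as homozygous minus heterozygous, ± SE of the limma fit, which rests on 2 samples per group. Limma's adjusted p was 1.00, rounded, for every chain gene. The median 95% interval of a chain gene reached 0.97 on the log2 scale to either side, or 1.96-fold. That interval is for 1 gene at a time and is not the size at which a call at adjusted p becomes likely. In bulk samples fewer cells of a type and less RNA per cell cannot be told apart.

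As a group the chain genes lay close to 0. The median log2 difference, homozygous minus heterozygous, was 0.07 over the 74 genes against 0.01 over all 8557 genes, and the middle of the distribution, between its quartiles, ran from -0.14 to 0.27. Of the 74 genes 44 lay above 0 (59.5%, against 51.3% of all genes) and 30 below. The homozygous samples were both higher than either heterozygous sample in 11 genes (14.9%, against 13.8% of all genes) and both lower in 9 (12.2%, against 13.4%). These shares were near those of all genes. Chain genes were bright, and 43 of them were among the 856 genes at or above the 90% point of mean log2 value. Over those 856 genes the median was -0.04 and 54.1% lay below 0. Without overlap, 9.11% of them lay above and 14.8% below. The chain median was -0.08 without heterozygous replicate 4 and -0.01 without homozygous replicate 2, so its sign rested on single samples. By complex the medians were 0.09 for complex I, 0.02 for complex II, 0.27 for complex III, -0.01 for complex IV and 0.05 for complex V.

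**Figure D1:**
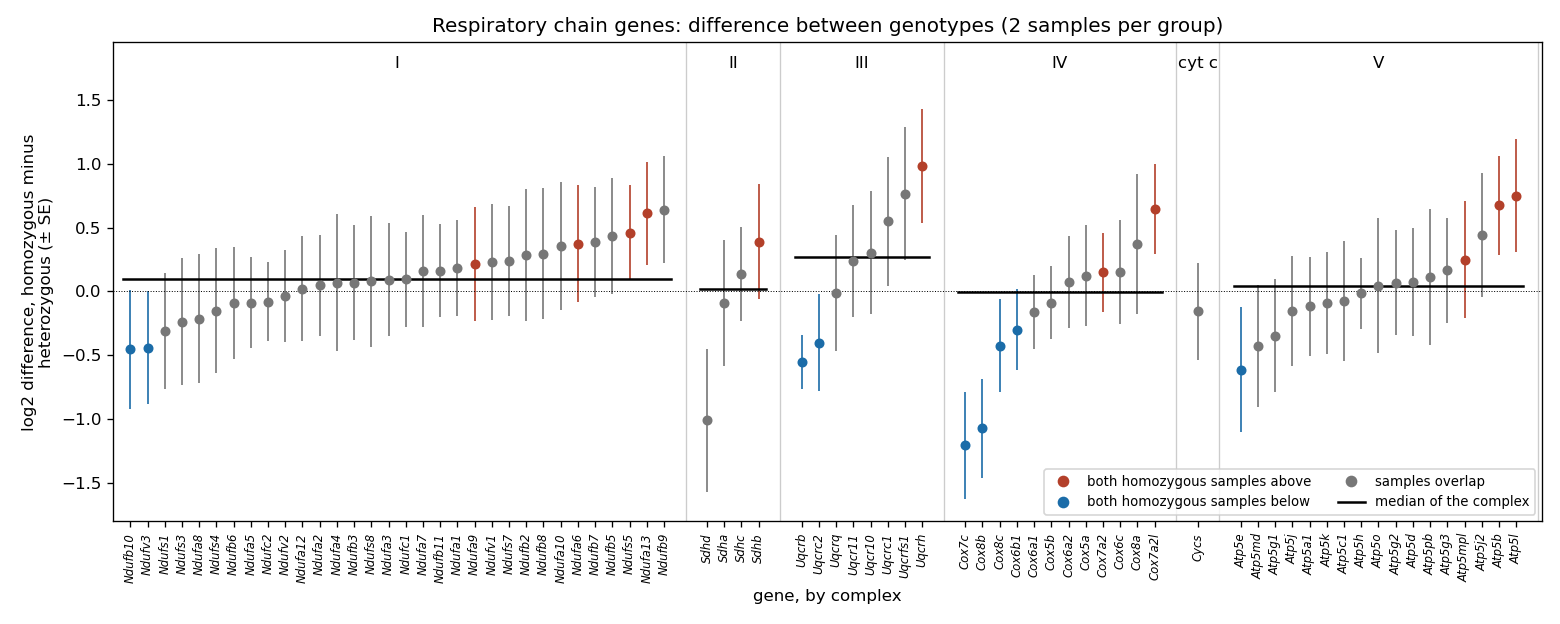
Log2 difference, homozygous minus heterozygous (y axis, ± SE from limma), for each of the 74 respiratory chain genes (x axis), grouped by complex, with the median of each complex as a black line. The widest differences are at the ends of complexes II, III and IV: Sdhd, Uqcrh, Cox7c and Cox8b.

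Complex I, the NADH dehydrogenase, was the largest set, and 22 of its 32 genes lay above 0. None reached an unadjusted p under 0.05. Those with the smallest p were accessory subunits, which surround the catalytic core. Values are listed as heterozygous replicates 3 and 4 against homozygous replicates 2 and 3. Ndufb9 read 3409.8 and 1948.7 against 4898 and 3328.5 (0.64 ± 0.42). Ndufa13, also known as GRIM-19, read 6167 and 2843 against 6554 and 6277 (0.61 ± 0.40). For both genes heterozygous replicate 4 was the lowest sample, and heterozygous replicate 3 lay close to or among the homozygous samples. Ndufs5 read 102 and 81.8 against 117 and 162 (0.46 ± 0.37), with both homozygous samples higher. In the other direction, Ndufv3 read 1431 and 1095 against 910.1 and 919 (-0.44 ± 0.44) and Ndufb10 read 812 and 546 against 534 and 428 (-0.45 ± 0.47), with no overlap between the groups. Over the complex 4 genes (12.5%, against 13.8% of all genes) lay without overlap above, with Ndufa6 at 0.38 and Ndufa9 at 0.21 beside those named, and 2 below (6.25%, against 13.4%). The 6 core subunits, among them those that hold the flavin and iron-sulfur centres, had a median of 0.02 and the 25 accessory subunits 0.16. Ndufa4, which carries a complex I name and is now regarded as a complex IV subunit, read 711.5 and 1592 against 1547 and 809 (0.07 ± 0.54).

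In complex I the heterozygous samples lay further from each other than the genotypes did. By the brightest kept probe set of each gene, heterozygous replicate 3 lay above replicate 4 in 25 of 32 genes. The median gap was 0.44 on the log2 scale. Over all genes the share was 48.4% and the median gap -0.03. Over the brightest genes, the 856 at or above the 90% point of mean log2 value, it was 51.9% and 0.04. Dimmer kept probe sets of complex I genes went both ways with no clear lean, so the pattern was one of the brightest probe sets. That of Ndufs7 read 465.6 in heterozygous replicate 3 and 338.1 in replicate 4, and that of Ndufb9 read 421.7 and 611.4. Heterozygous replicate 4 was the lowest of the 4 samples in 18 of the 32 complex I genes, while 29.3% of all genes were lowest there. Relative to the mean of the 4 samples the complex I median was 0.17 and -0.28 against 0.07 and 0.03. Ndufs8, a core iron-sulfur subunit, read 6441 and 2016 against 4556 and 3192. The homozygous pair thus lay between the heterozygous samples. Without heterozygous replicate 4 the complex I median was -0.15, and without heterozygous replicate 3 it was 0.26. The Gapdh and Actb ratios of heterozygous replicate 4 also stood apart, in opposite directions, and their part was not tested.

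The ATP synthase did not show this pattern. Of 17 complex V genes 7 (against 48.4% of all genes) were higher in heterozygous replicate 3 than in replicate 4, a share near the background, with a median gap of -0.22. Each of these replicates was the lowest sample in 5 of the 17. The median gap was -0.22 for the 5 genes of the catalytic head and central stalk, from 1.18 in Atp5d to -1.02 in Atp5c1. It was -0.57 for the 4 genes of the peripheral stalk, which holds the catalytic head still, -0.46 for the 3 genes of the c-ring, which turns with proton flow, and 0.10 for the 5 small membrane subunits. In complex IV heterozygous replicate 4 was the lowest sample in 6 of 12 genes, against 29.3% of all genes. The median gap there was 0.11, while it was -0.50 in complex II and -0.04 in complex III. Over the lists of other mitochondrial genes described below, it ran from -0.29 for the citric acid cycle list to 0.20 for antioxidant genes. A low heterozygous replicate 4 was thus not particular to complex I. The differences between complexes were not tested. The gap within the heterozygous pair was wider than within the homozygous pair in 42 of the 74 chain genes, with a median absolute size of 0.499 against 0.310. All genes showed the same order, 0.467 against 0.360.

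**Figure D2:**
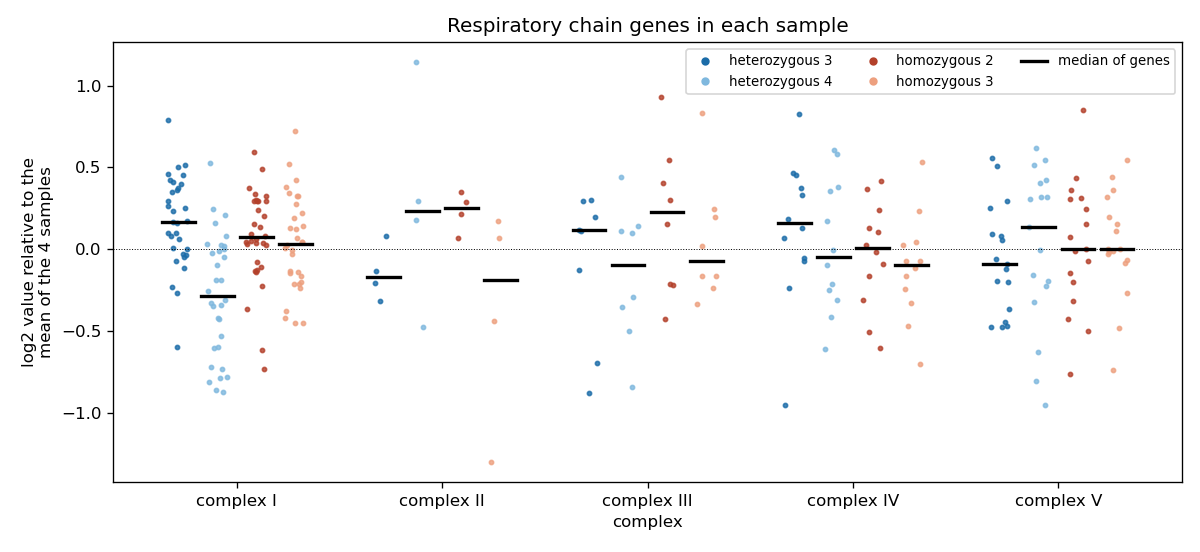
Log2 value of each gene relative to its mean over the 4 samples (y axis), by complex (x axis), with 1 point per gene, colours for samples and black bars for the median of genes. In complex I heterozygous replicate 4 has the lowest median, -0.28, while in complex V it has the highest, 0.14.

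Complex II, succinate dehydrogenase, is shared with the citric acid cycle. Its flavoprotein gene Sdha read 488 and 703 against 729.7 and 409.9 (-0.09 ± 0.49). The iron-sulfur subunit gene Sdhb read 1249.8 and 839.5 against 1373 and 1331 (0.39 ± 0.45), with both homozygous samples higher. Of the membrane anchors, Sdhc was dim, at 41.7 and 71.6 against 64.2 and 64 (0.14 ± 0.37). Sdhd read 61.3 and 193 against 92.9 and 9.5 (-1.01 ± 0.56). Homozygous replicate 3 was the lowest and heterozygous replicate 4 the highest, and the groups overlapped. The other Sdhd probe set, too dim to be kept, read 5 and 7.5 against 10.8 and 62.1. There homozygous replicate 3 was the highest. When the strain field decided the group of homozygous replicate 3, the complex II median was 0.34, and Sdhd turned to 0.39.

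Complex III, the cytochrome bc1 complex, had 5 of 8 genes above 0, and its subunits did not share a direction. Uqcrb, a small subunit near the ubiquinone site, read 24136 and 30270.0 against 19159 and 17674.5, a difference of -0.55 ± 0.21 with a 95% interval of -1.02 to -0.09. Both homozygous samples were lower. After quantile normalization the difference of Uqcrb was -0.068 ± 0.19, within 1 SE of 0, and by strain field it was -0.29 ± 0.35. A dimmer probe set of Uqcrb read 297 and 2025 against 343 and 1022 (-0.39 ± 0.80), so it had the same sign with overlapping samples. Uqcrh, the hinge subunit at the cytochrome c1 side, read 131 and 183.5 against 262 and 437, a difference of 0.99 ± 0.45 with a 95% interval of -0.000282 to 1.97 and both homozygous samples higher. By strain field Uqcrh differed by 0.21 ± 0.61. These subunits of 1 complex had opposite signs.

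The Rieske iron-sulfur protein gene Uqcrfs1 read 113 and 255 against 473 and 205.5 (0.77 ± 0.52). The core protein genes differed in sign, with Uqcrc1 at 519.7 and 219 against 521.5 and 502 (0.55 ± 0.51) and Uqcrc2 at 3965 and 3447 against 2385 and 3264 (-0.40 ± 0.38). The remaining subunits Uqcrq, Uqcr10 and Uqcr11 differed by -0.01, 0.30 and 0.24. In Uqcrc1 only heterozygous replicate 4 stood apart, and without it the difference was -0.02. The complex III median was -0.01 without heterozygous replicate 4, 0.07 without homozygous replicate 2 and 0.55 without homozygous replicate 3.

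Complex IV, cytochrome c oxidase, contained the largest differences of the chain, in small nuclear subunits that surround its catalytic core. Cox7c read 395 and 281 against 138 and 116, a difference of -1.20 ± 0.42 with a 95% interval of -2.13 to -0.28, or 2.30-fold lower in homozygous follicles. By strain field Cox7c differed by -0.67 ± 0.60. Cox8b, the isoform of striated muscle and brown fat, read 54.9 and 63.8 against 9.4 and 13.5 (-1.07 ± 0.38). In both genes both homozygous samples were lower, and neither passed the adjusted threshold. Cox8b passed the brightness filter through the heterozygous samples, with a homozygous mean of 5.44 on the log2 scale under the limit of 5.96, the only 1 of the 74 genes with a group mean under it. A gene kept in that way had to differ, so its difference and its place among the 3 genes at an unadjusted p under 0.05 are a description. It was not kept with a pseudocount of 16 or with the brightest 40% of probe sets. Both homozygous readings lay below the added constant (pseudocount) of 32, so the difference is understated. The other Cox7c probe set read between 2.3 and 18.1 and was not kept.

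Cox7a2l, which encodes a factor that joins complexes III and IV into supercomplexes, pointed the other way in all 3 of its kept probe sets. The brightest read 3213 and 2843 against 5069 and 4464, a difference of 0.65 ± 0.35. The others differed by 0.55 ± 0.42 and 1.64 ± 0.62, the latter among the 4 probe sets at an unadjusted p under 0.05, and in each of the 3 the homozygous samples were the higher ones. Probe sets of a gene read the same RNA and are not replicates.

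By their brightest probe sets, the widely expressed forms of the complex IV subunits with tissue isoforms all differed by less than 1 SE. Dimmer kept probe sets differed by more than 1 SE in Cox8a (0.67 ± 0.40) and Cox6b1 (-0.48 ± 0.44), each without overlap. Those of Cox6a1 (0.06 ± 0.49) and Cox7a2 (0.16 ± 0.47) did not. Cox6a1 read 13119 and 8749 against 9519 and 9615 (-0.16 ± 0.29), Cox7a2 read 5587 and 5438 against 6241 and 6003 (0.15 ± 0.31), and Cox8a read 94.7 and 335 against 187 and 323 (0.37 ± 0.55). Cox6b1, the subunit that faces the intermembrane space, read 6648 and 6843 against 6194 and 4842 (-0.30 ± 0.32), with both homozygous samples lower. Of the tissue isoforms other than Cox8b, the muscle form Cox6a2 read 87.4 and 92.9 against 115.8 and 79.9 (0.07 ± 0.36), and the testis form Cox8c read 107 and 138 against 75.1 and 90.8 (-0.42 ± 0.36). Cox7a1, a muscle and heart form, read at most 27.1 and Cox6b2 at most 33.0, and neither was kept. The groups overlapped in Cox6a2 and did not overlap in Cox8c. The remaining subunits Cox5a, Cox5b and Cox6c differed by 0.12, -0.09 and 0.15, with overlapping groups.

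**Figure D3:**
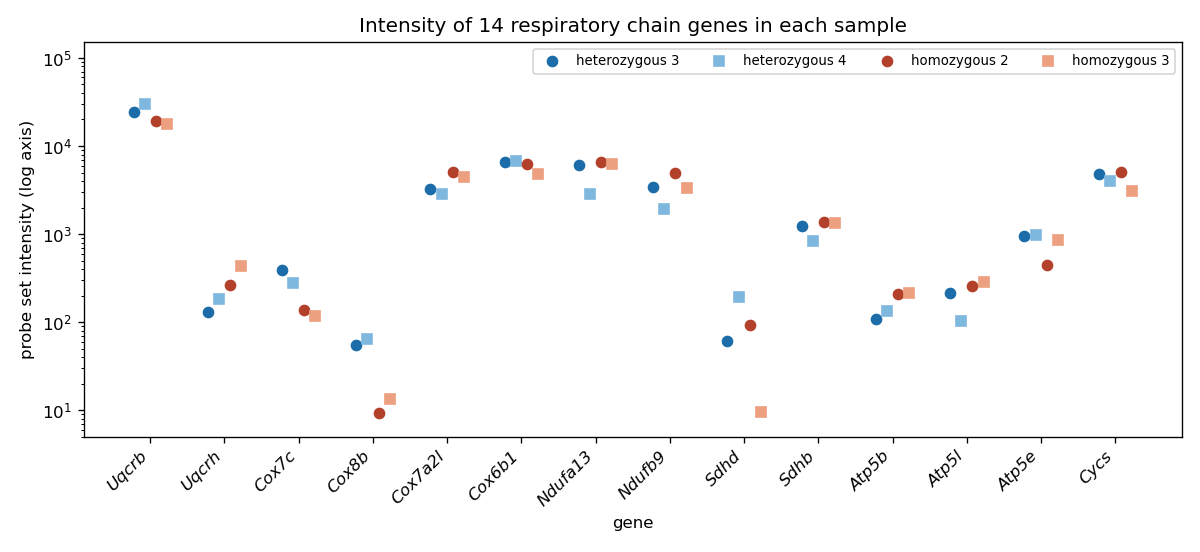
Probe set intensity (y axis, log scale) of 14 respiratory chain genes (x axis) in each of the 4 samples, shown as coloured points, with the brightest kept probe set of each gene. Cox7c, Cox8b and Uqcrb are lower in both homozygous samples and Uqcrh, Cox7a2l and Atp5b are higher in both, whereas Sdhd and Cycs overlap.

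Many respiratory chain genes are known targets of nuclear respiratory factor 1 (NRF1) and of the ETS factor GABP. Promoter sequences, 250 bases before to 50 after the gene start, were found in RefSeq (GRCm38.p6) for 62 of the 74 genes. An NRF1 site, GCGCA and GCGC with 1 base of any kind between them, was present on either strand in 13 of 62 promoters (21.0%) against 4.82% of 27025 promoters of the same length. CCGGAAGT, an ETS site, was in 8.06% against 3.99%, AAGATGGC, a YY1 site, in 12.9% against 2.87%, and TCAAGGTCA, a site of oestrogen-related receptors, in 3.23% against 0.407%. GGGCGGG, an SP1 site, was in 33.9% against 25.8%, and CCAAT in 40.3% against 38.0%. Of the 102 matches in chain promoters, 0 pairs of different motifs shared bases, and the median GC content was 58.5% against 52.7%. These are descriptions of letters and not of binding. Only exact matches were counted, so sites that depart from these letters were missed.

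The 170 bases before the start are shown, 5' to 3' on the gene's strand, for Uqcrh, Cox7c, Cox8b and Cox7a2l, whose differences were among the widest of complexes III and IV, and for Cox6a1, a general subunit whose level was similar in both groups. Capitals mark motif matches on either strand, so a site on the other strand appears as its reverse complement: an ETS site and CCAAT in Uqcrh, an SP1 site in Cox7a2l, and 2 NRF1 sites, CCAAT and an SP1 site in Cox6a1. Cox7c and Cox8b, the genes with the largest differences, held none of these letters in this stretch. Over the full 300 bases 5 of 9 complex IV promoters held none. Cox5a, Cox5b and Cox7a2, with differences of 0.12, -0.09 and 0.15, were among them. Cox6a1 was the only 1 of the 9 with an NRF1 site.
Uqcrh (chr4:116075071-116075240, minus strand, GRCm38.p6): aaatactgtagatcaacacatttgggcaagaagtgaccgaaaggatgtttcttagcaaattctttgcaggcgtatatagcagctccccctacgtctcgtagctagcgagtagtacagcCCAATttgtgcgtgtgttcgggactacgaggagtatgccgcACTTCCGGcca
Cox7c (chr13:86046796-86046965, minus strand, GRCm38.p6): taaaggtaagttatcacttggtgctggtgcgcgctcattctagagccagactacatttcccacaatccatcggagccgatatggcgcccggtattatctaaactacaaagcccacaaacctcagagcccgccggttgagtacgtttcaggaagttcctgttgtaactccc
Cox8b (chr7:140900447-140900616, minus strand, GRCm38.p6): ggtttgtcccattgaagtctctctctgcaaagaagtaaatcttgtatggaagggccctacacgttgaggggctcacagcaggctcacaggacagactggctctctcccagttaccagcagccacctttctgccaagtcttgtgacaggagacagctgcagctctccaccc
Cox7a2l (chr17:83514334-83514503, minus strand, GRCm38.p6): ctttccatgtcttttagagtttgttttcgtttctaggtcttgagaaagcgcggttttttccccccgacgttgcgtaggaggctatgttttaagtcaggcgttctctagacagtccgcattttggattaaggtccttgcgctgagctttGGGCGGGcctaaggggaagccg
Cox6a1 (chr5:115348959-115349128, minus strand, GRCm38.p6): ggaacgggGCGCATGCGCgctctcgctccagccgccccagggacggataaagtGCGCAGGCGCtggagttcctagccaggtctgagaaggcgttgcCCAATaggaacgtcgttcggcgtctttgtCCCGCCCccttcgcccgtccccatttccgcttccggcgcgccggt

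Cox8b and Cox7c, whose upstream sequences are shown above, were set beside markers of fat and muscle, none of which passed the adjusted threshold. All 8 white fat markers lay below 0, with a median of -0.42, and their summed intensity was 13665 and 12444 against 10386 and 6044. In 3 of the 8 (37.5%, against 13.4% of all genes) both homozygous samples were lower, Car3 among them, at 3959.8 and 3323 against 1324 and 1390.4. Of 5 brown fat markers 3 were kept, with a median of 0.14 and 2 above 0. The summed intensity of all 5 was 254 and 328 against 343 and 274, with overlapping groups, and Ucp1, the defining gene of brown fat, read between 4.1 and 21.9. Of 20 skeletal muscle markers 8 were kept, with a median of -0.27 and 6 below 0. The summed intensity of all 20 was 735 and 1962 against 591 and 896, in which heterozygous replicate 4 was highest. Of 9 fibroblast markers 8 lay below 0, with a median of -0.54. In 5 of the 9 (55.6%, against 13.4% of all genes) both homozygous samples were lower. Their summed intensity was 12298 and 9956 against 6020 and 6201. No marker read 0 in these samples. The part of other cell types in the differences of Cox8b and Cox7c was not tested.

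Cycs, the mobile carrier between complexes III and IV, read 4864 and 4023 against 5068 and 3101 (-0.16 ± 0.38), and the groups overlapped. In complex V, the catalytic beta subunit gene Atp5b read 109 and 132.5 against 207 and 216 (0.67 ± 0.39). Atp5l, subunit g of the membrane part, read 212.5 and 102.5 against 259 and 288 (0.75 ± 0.44). In both genes both homozygous samples were higher. Atp5e, the epsilon subunit of the central stalk, read 960.2 and 976 against 444 and 867.5 (-0.61 ± 0.49), with both homozygous samples lower. Atp5j2, subunit f, differed by 0.44 ± 0.48 and Atp5md, which encodes a small subunit of the membrane part, by -0.43 ± 0.48.

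The 3 genes of the c-ring encode the same mature protein with different import sequences. Atp5g1 read 267 and 379.5 against 218 and 273 (-0.34 ± 0.44), Atp5g2 read 213 and 132 against 196 and 162 (0.07 ± 0.41), and Atp5g3 read 3057 and 5284.5 against 5767 and 3528 (0.17 ± 0.41). Groups overlapped in all 3. The alpha subunit gene Atp5a1 differed by -0.12 ± 0.39, a sign opposite to that of Atp5b, with which it forms the catalytic head. Atp5mpl, a small membrane subunit, differed by 0.25, with both homozygous samples higher. The remaining genes were Atp5pb at 0.11, Atp5d at 0.07, Atp5o at 0.05, Atp5h at -0.01, Atp5c1 at -0.07, Atp5k at -0.09 and Atp5j at -0.15.

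Probe sets of a gene often disagreed. Of 40 chain genes with 2 or more kept probe sets, 20 had probe sets on both sides of 0. The widest such split was in Ndufc2, a membrane-arm subunit of complex I, at -0.08 for the brightest probe set and 0.92 for the other. Ndufs8 had 6 kept probe sets, 3 above and 3 below 0, from -0.52 to 0.16. Splits also ran through Ndufs4, Ndufb6, Ndufa12, Ndufv2, Ndufb7, Ndufa7, Ndufa3, Sdha, Sdhc, Uqcrc2, Uqcrq, Cox5a, Cox5b, Cox6a1, Atp5h, Atp5c1, Atp5k and Atp5o, with ranges between 0.06 in Atp5o and 0.66 in Ndufs4. With the mean of all kept probe sets per gene, the median over the 74 genes was 0.14 and 24 genes lay below 0.

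**Figure D4:**
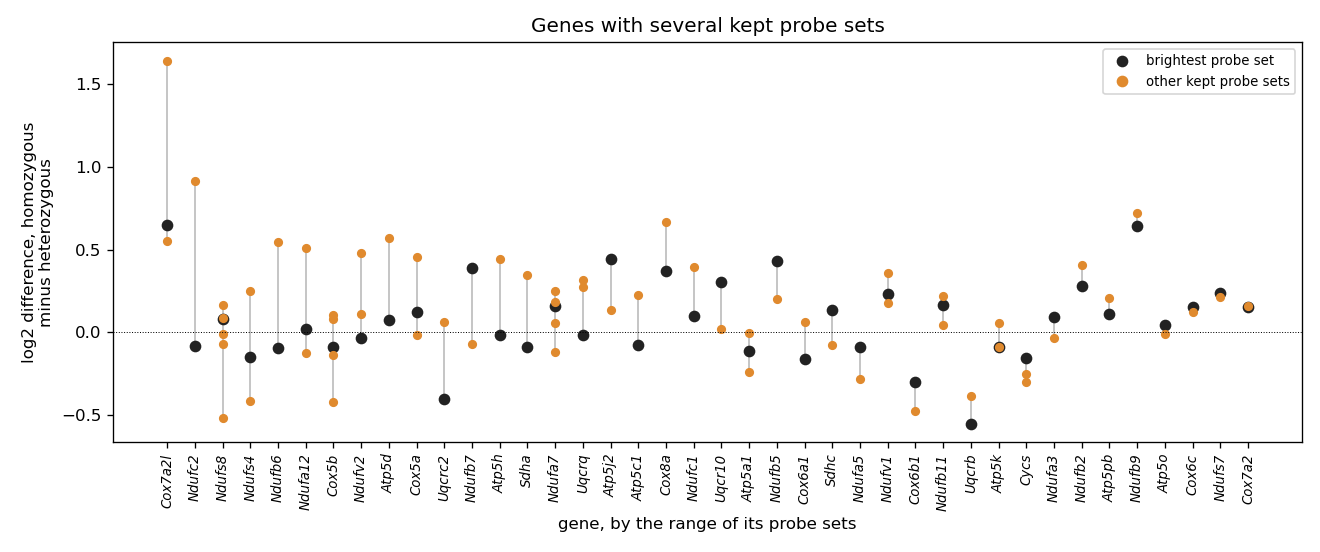
Log2 difference, homozygous minus heterozygous (y axis), of every kept probe set of the 40 respiratory chain genes with several (x axis, ordered by range), with the brightest probe set in black and the others in orange. All 3 Cox7a2l probe sets lie above 0, while the 6 of Ndufs8 lie on both sides of it.

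Mitochondrial genes beyond the chain subunits likewise held no call, with 0 passing limma's adjusted p in any of 8 lists. At an unadjusted p under 0.05 there was 1 gene, Ppargc1b, which encodes a coactivator of mitochondrial biogenesis. It read 16.2 and 6.5 against 43.6 and 77.1 (1.08 ± 0.41). Ppargc1b passed the filter through the homozygous samples, with a heterozygous mean of 5.43 under the limit of 5.96, so this is a description. It was not kept with a pseudocount of 16 or with the brightest 40% of probe sets, and by strain field it differed by 0.36. The 16 regulators of biogenesis had a median of -0.13, with 7 above and 9 below 0. Esrrg, a nuclear receptor of the oestrogen-related family, differed by 0.78 ± 0.38, with a heterozygous mean of 5.85 also under that limit, and Pprc1, a relative of Ppargc1b, by 0.66 ± 0.44.

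The 34 assembly factors, which help to build the complexes, had a median log2 difference of 0.09 (20 above 0). Acad9, a complex I assembly factor, read 64.3 and 123 against 173 and 197 (0.82 ± 0.40), with both homozygous samples higher. Cox15, an enzyme of haem A synthesis, read 169.7 and 89.3 against 62.2 and 70 (-0.67 ± 0.39), with both lower. Cox16 differed by 0.72 ± 0.42. It passed the brightness filter through the homozygous samples, with a heterozygous mean of 5.83 under the limit of 5.96, so this is a description. Among the 11 other subunits and electron entry genes (median 0.09, 8 above 0), Hccs, which attaches haem to cytochrome c, differed by -0.65 ± 0.35, Etfdh, which feeds electrons from fat oxidation to ubiquinone, by -0.59 ± 0.39, and the cytochrome c1 gene Cyc1 by 0.65 ± 0.59. Cyc1 read 2501 and 638 against 1749.9 and 2301, and heterozygous replicate 4 was again the low sample.

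Of 14 pyruvate dehydrogenase and citric acid cycle genes 6 lay above 0 (median -0.07), with the citrate synthase gene Cs at -0.30 ± 0.36, Dld at 0.33 ± 0.40 and Sucla2 at 0.36 ± 0.48. The 12 carriers and channels had a median of -0.02 (6 above 0), with Mpc1 of the pyruvate carrier at -0.46 ± 0.37, the carnitine carrier gene Slc25a20 at -0.47 ± 0.46 and the channel gene Vdac1 at -0.24 ± 0.26. Of 21 protein import and chaperone genes 17 lay above 0 (median 0.25), with Timm17b at 0.80 ± 0.68, Timm22 at 0.49 ± 0.44 and Pam16 at 0.52 ± 0.54. Over all genes 51.3% lay above 0. Of these 21 genes 4 lay without overlap above (19.05%, against 13.8% of all genes) and 1 below (4.76%, against 13.4%).

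The 73 mitochondrial ribosomal protein genes, whose products translate the chain subunits encoded in mitochondrial DNA, had a median of 0.15 (46 above 0), with Mrps6 at 0.78 ± 0.36, Mrps25 at 0.69 ± 0.40 and Mrpl36 at 0.56 ± 0.44. In 11 of the 73 both homozygous samples were higher (15.1%, against 13.8% of all genes) and in 4 both were lower (5.48%, against 13.4%). The 6 antioxidant genes had a median of 0.13, with Glrx2 at 0.44 ± 0.48, Gpx4 at 0.39 ± 0.58 and Prdx3 at -0.24 ± 0.42. The chain subunits encoded in mitochondrial DNA were not analysed here.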

How the data were processed

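Each of the 4 arrays gave 1 linear intensity per probe set, as deposited. The authors had scaled the arrays alike: with 2% of the probe sets trimmed at either end, all arrays averaged 165. No label or file header names the software or the background method. Arrays have no read depth, and their small number limits the precision.

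Samples were grouped by title. Intensities were transformed to log2(intensity + 32), which understates differences of dim probe sets. Without the 64 controls, the brightest 60% of probe sets by mean over all samples stayed in, 13576 in all. The test was limma 3.58.1 under R 4.3.3 (linear fit per probe set, then trended empirical Bayes moderation; both sides tested; p-values adjusted by Benjamini-Hochberg across the 13576, threshold 0.05). The test was checked on simulated data. Symbols came from the platform annotation, and a gene was represented by its brightest kept probe set. All 74 kept genes matched a current gene record.

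The members and lists were chosen with earlier results of these data known. Named are the 5 genes per complex with the smallest p, Cycs, tissue isoforms, c-ring genes, genes whose probe sets differ in sign, and 3 genes per other list. Ndufa4, Ndufa6, Ndufa9, the remaining genes of complexes III to V, Car3 and Ucp1 were chosen after their values were seen. So were the further probe sets of Cox7a2l, Uqcrb, Ndufs7, Ndufb9, Cox8a, Cox6b1 and Sdhd. Alternatives covered the pseudocount, filter, scaling, grouping, moderation, probe set summary and each left-out sample.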

Additional observations from a re-analysis of the deposited data

How the results depend on the processing

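No chain gene passed limma's adjusted p under any of the 14 alternatives. Over all probe sets the count was 0 except without heterozygous replicate 3, where it was 51. The range with each sample left out was 0 to 51. By the same leave-outs the median of all members, meaning the 74 chain genes, ranged from -0.0815 to 0.16, the median of complex I from -0.15 to 0.26, the median of complex II from -0.22 to 0.22, the median of complex III from -0.0096 to 0.55, the median of complex IV from -0.28 to 0.085 and the median of complex V from -0.14 to 0.12. Genes without overlap ranged from 19 to 35 higher and 18 to 26 lower, while 27.5% to 36.0% of all genes were higher and 27.6% to 35.3% lower, since groups of 1 and 2 samples overlap less often. Grouping by the strain field gave 22 higher and 14 lower, against 19.9% and 22.8% of all genes, with groups of 3 and 1, and a complex II median of 0.34. With quantile normalization the complex IV median was 0.13. The cause was not tested for the medians. Where a group is left with 1 sample, that sample is assumed to vary like the other group.

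Some signs changed, many of them of small differences, but wider differences also turned. Among these were Sdhd, Pprc1, Slc25a20 and Glrx2 by strain field and Uqcrc1, Cyc1 and Timm17b without heterozygous replicate 4. Pam16, Atp5j2, Ndufb7 and Cox8a also turned with a single sample left out. Quantile normalization gave 0.079 for Cox6a1, 0.19 for Atp5h and Cox5b, 0.037 for Ndufc2, 0.032 for Ndufv2 and 0.0003484 for Vdac1. The strain field gave 0.39 for Sdhd, 0.46 for Sdha, 0.036 for Cox6b1, 0.36 for Cycs, -0.22 for Cox8a, 0.0007291 for Atp5h, -0.67 for Atp5o, -0.15 for Ndufa12, -0.17 for Ndufa3, 0.064 for Ndufb6, 0.11 for Ndufc2, 0.40 for Ndufs4, 0.27 for Ndufv2, -0.10 for Dld, -0.011 for Pprc1, 0.11 for Slc25a20 and -0.22 for Glrx2. The mean of probe sets gave 0.13 for Sdha, 0.076 for Atp5c1, 0.21 for Atp5h, 0.23 for Ndufb6, 0.42 for Ndufc2, -0.045 for Ndufs8, 0.18 for Ndufv2 and 0.19 for Uqcrq.

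With each sample left out in turn, the genes that changed sign ranged from -0.11 to 0.38 for Sdhc, -0.45 to 0.13 for Cox6a1, -0.40 to 1.14 for Cox8a, -0.23 to 0.56 for Atp5g3, -0.48 to 0.57 for Atp5o, -0.38 to 0.20 for Cox5b, -0.40 to 0.21 for Ndufb6, -0.53 to 0.23 for Ndufs4, -0.48 to 0.30 for Sdha, -0.021 to 1.12 for Uqcrc1, -0.28 to 1.17 for Atp5j2, -0.22 to 0.36 for Atp5g2, -0.58 to 0.44 for Atp5c1, -0.14 to 0.12 for Atp5h, -0.18 to 0.43 for Cox5a, -0.15 to 0.20 for Ndufa12, -0.18 to 0.51 for Ndufa7, -0.21 to 0.98 for Ndufb7, -0.75 to 0.91 for Ndufs8, -0.22 to 0.19 for Uqcrq, -0.31 to 1.60 for Cyc1, -0.34 to 1.94 for Timm17b, -0.037 to 1.08 for Pam16, -0.35 to 1.12 for Gpx4, -0.69 to 0.21 for Prdx3, -0.13 to 0.28 for Cox6a2, -0.25 to 0.066 for Atp5k, -0.15 to 0.88 for Sucla2, -0.51 to 0.19 for Cycs, -0.0816 to 0.27 for Ndufa3, -0.20 to 0.042 for Ndufc2 and -0.25 to 0.18 for Ndufv2. Uqcrb, Uqcrh, Cox7c, Cox8b and Cox7a2l kept their sign under every alternative that kept them. Their groups do not overlap, so leaving out 1 sample could not change the sign. The moderation settings do not alter a difference at all. Those alternatives therefore say nothing about stability. Among the others, Uqcrb shrank to -0.068 (SE 0.19) with quantile normalization and Uqcrh to 0.21 by strain field. Cox8b and Ppargc1b were not kept under 2 of the 14, and by strain field Ppargc1b was 0.36. No paired analysis was possible because the groups share only the replicate number 3.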
